A study of Mus musculus with 61 samples.

Results

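The genes of the classical axon guidance families were taken by symbol from the gene counts: Slit ligands and Robo receptors, semaphorins with their plexin and neuropilin receptors, netrins with Unc5 receptors and Dcc, and ephrins with Eph receptors. Of 46078 genes counted, 68 protein-coding genes matched, 34 of them ligands and 34 receptors. The gene filter was passed by 63 of them, 32 ligands and 31 receptors. Pancreatic ductal organoids of C57BL/6 mice carried lentiviral, doxycycline-inducible vectors for Pdx1 (LSSOrange reporter), MafA (tdTomato reporter) and Ngn3 (GFP reporter), the last either as the wild-type protein (WTNgn3) or as the phospho-mutant 6SANgn3, in which serines are replaced by alanine. After 8 days of doxycycline, pools of 50 cells were sorted by reporter into 12 conditions: Pdx1, MafA, Pdx1-MafA, Ngn3-Pdx1, Ngn3-MafA and Ngn3-Pdx1-MafA, each from a WTNgn3 and from a 6SANgn3 culture. Cells without Ngn3 are therefore cells of the same cultures that had taken doxycycline and at least 1 other factor, not untreated ducts, and vector and endogenous transcripts of the 3 factors were counted together. The 32 samples fell into 17 with Ngn3 (6 Ngn3-Pdx1, 6 Ngn3-MafA and 5 Ngn3-Pdx1-MafA) and 15 without it (4 Pdx1, 5 MafA and 6 Pdx1-MafA). Replicates 1 and 2 came from passage 2 and replicate 3 from passage 5, so replicate and passage cannot be told apart. Replicate 3 was lacking for both Pdx1 conditions and for MafA from the WTNgn3 culture, and that of 6SANgn3-Pdx1-MafA failed the library criteria. Passage is therefore unevenly spread over the groups compared. Every sample is a bulk pool, in which fewer cells with a transcript and less RNA per cell cannot be told apart.

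Axon guidance molecules steer growing neurites by attraction or repulsion, and epithelia use the same ligand and receptor pairs for cell adhesion, sorting and boundary formation. Slits are secreted and bind Robo receptors. Netrins bind Dcc, which mediates attraction, and Unc5 receptors, which mediate repulsion or, without ligand, promote cell death. Semaphorins are secreted (class 3) or membrane-bound and act through plexins, with neuropilins as co-receptors for most of class 3. Ephrins are membrane-bound ligands of the Eph receptor tyrosine kinases and signal in both directions at cell contacts, the A class through a lipid anchor and the B class through a transmembrane domain. In the pancreas, Slit-Robo and Eph-ephrin signalling are known from islet and progenitor biology, and Ngn3 is the transcription factor that starts the endocrine programme, a basic helix-loop-helix protein of the kind that binds E-boxes (CANNTG).

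The start regions of the members of lowest adjusted p among the semaphorins, Unc5 receptors, ephrins and Eph receptors are shown because these members lead their families in the contrast between cells with and without Ngn3. Sema3g, Unc5a and Efna3 were higher with Ngn3, and Epha4 was lower. Each sequence is the 250 bases before a RefSeq start in build GRCm38.p6, on the strand of the gene, with every CANNTG in capitals.
Sema3g, chr14:31217623-31217872, plus strand: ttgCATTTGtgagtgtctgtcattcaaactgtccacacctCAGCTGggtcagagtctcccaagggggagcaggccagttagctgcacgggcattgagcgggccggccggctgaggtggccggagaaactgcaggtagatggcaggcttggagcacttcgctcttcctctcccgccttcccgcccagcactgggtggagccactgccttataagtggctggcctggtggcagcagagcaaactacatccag
Unc5a, chr13:54949161-54949410, plus strand: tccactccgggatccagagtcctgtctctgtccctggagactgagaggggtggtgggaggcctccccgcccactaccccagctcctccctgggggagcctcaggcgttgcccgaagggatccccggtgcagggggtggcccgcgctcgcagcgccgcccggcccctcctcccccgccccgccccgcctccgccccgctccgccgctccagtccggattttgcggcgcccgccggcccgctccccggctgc
Efna3, first start, chr3:89322940-89323189, minus strand: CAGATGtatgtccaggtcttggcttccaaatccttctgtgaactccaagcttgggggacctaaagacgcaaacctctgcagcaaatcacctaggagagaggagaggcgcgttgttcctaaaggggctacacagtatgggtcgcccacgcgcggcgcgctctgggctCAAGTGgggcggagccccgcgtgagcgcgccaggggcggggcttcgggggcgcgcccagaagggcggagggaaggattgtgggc
Epha4, chr1:77515089-77515338, minus strand: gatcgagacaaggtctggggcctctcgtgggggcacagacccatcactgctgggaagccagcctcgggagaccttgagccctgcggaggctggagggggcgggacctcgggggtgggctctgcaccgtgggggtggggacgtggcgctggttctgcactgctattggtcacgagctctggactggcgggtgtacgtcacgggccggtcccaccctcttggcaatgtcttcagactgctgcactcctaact
The Sema3g window held CATTTG at 247 to 242 and CAGCTG at 210 to 205 bases before the start. The Efna3 window held CAGATG at 250 to 245 and CAAGTG at 84 to 79 bases before the start. The windows of Unc5a and Epha4, and that of a second Efna3 start, held none. RefSeq start regions were found for 58 of the 68 members, with 74 starts in all, and none was found for Slit1. CANNTG, which reads the same on both strands, was present in 36 of these 74 windows (48.6%) and in 66.2% of 32851 windows over all genes. Among the tested members it stood in 8 of 15 windows of those called higher with Ngn3, in 4 of 12 of those called lower and in 20 of 42 of those not called. CAGATG, or its reverse complement CATCTG, stood in 6.76% of the member windows and in 14.4% of all windows. These counts describe letters in these windows only.

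Gene counts per sample ranged from 2579583 to 19461008, so that 3 counts, the upper limit for a count of 0, corresponded to 0.154 to 1.16 per 1000000 gene counts before scaling. Levels are given as CPM (counts per 1000000 gene counts, scaled between libraries). The Ngn3 gene, Neurog3, was at 7.87 to 329 CPM in the 17 samples with the Ngn3 reporter and at 0 to 0.787 CPM in the 15 without it, so Neurog3 matched the Ngn3 label in every sample. The counts cannot tell the Ngn3 forms apart. Pdx1 was at 9.84 to 191 CPM in samples sorted for Pdx1 and at 3.21 to 30.6 CPM in those sorted without it, and Mafa was at 0 to 12.7 CPM in samples sorted for MafA and at 0 to 0.116 CPM in the others, so samples with and without either factor overlapped. All 8 duct markers were detected in both groups, and their summed level was 10238 to 56791 CPM without Ngn3 and 1392 to 16496 CPM with it. The summed endocrine markers stood at 22.6 to 108 CPM without Ngn3, where Neurod1 never exceeded 3 counts, and at 1167 to 15093 CPM with it. Duct and endocrine markers thus moved with Ngn3 alongside the members described here, and their part in the members' differences was not tested. Of the cell types in which guidance genes are known to be high, the glial markers summed to at most 11.0 CPM with Sox10 at 3 counts or fewer in every sample. The endothelial markers reached 26.6 CPM in 1 Ngn3-Pdx1 sample, through Kdr, with Cdh5, Emcn and Tie1 at 3 counts or fewer everywhere. The fibroblast markers reached 296 CPM in WTNgn3-MafA replicate 1 and at most 19.1 CPM in all others. Of these 7 markers, 5 exceeded 3 counts in at least 1 Ngn3-MafA sample, while Dcn and Lum stayed at 3 counts or fewer there. The leukocyte markers summed to 22.0, 32.6 and 9.31 CPM in WTNgn3-Pdx1-MafA replicates 1 to 3 and 38.5 and 37.3 CPM in 6SANgn3-Pdx1-MafA replicates 1 and 2, against 8.71 to 17.9 CPM in Pdx1-MafA, with Adgre1, Lyz2 and Cd3e at 3 counts or fewer in all of these samples, and reached at most 43.6 CPM elsewhere. The part of these markers was not tested either.

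The most abundant member was Plxnb2, a plexin for class 4 semaphorins, with a mean of 413 CPM over all 32 samples. The most abundant Eph receptor was Epha2, known from epithelia, with 196 CPM, the most abundant semaphorin was the secreted Sema3c, with 99.1 CPM, and the most abundant ephrin was Efna1, of the A class, with 95.2 CPM. The highest means of the other families were 77.6 CPM for Nrp1, 31.9 CPM each for Ntn1 and Unc5b, 29.3 CPM for Slit2 and 8.73 CPM for Robo1. Per kilobase of exon, the mean levels without Ngn3 were 65.2 CPM for Plxnb2, 57.1 for Epha2 and 52.9 for Efna1, and with Ngn3 they were 43.3, 28.5 and 51.3. The 5 members that did not pass the filter were Epha10, Epha3, Robo4, Sema3a and Ntn5, of which Ntn5 was at 3 counts or fewer in every sample. Of the 3 noncoding symbols that matched the rule, Plxna4os1 reached 16 counts, Plxna4os2 reached 7 and Plxna4os3 had none. Ntn3 was not analysed here.

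**Figure D1:**
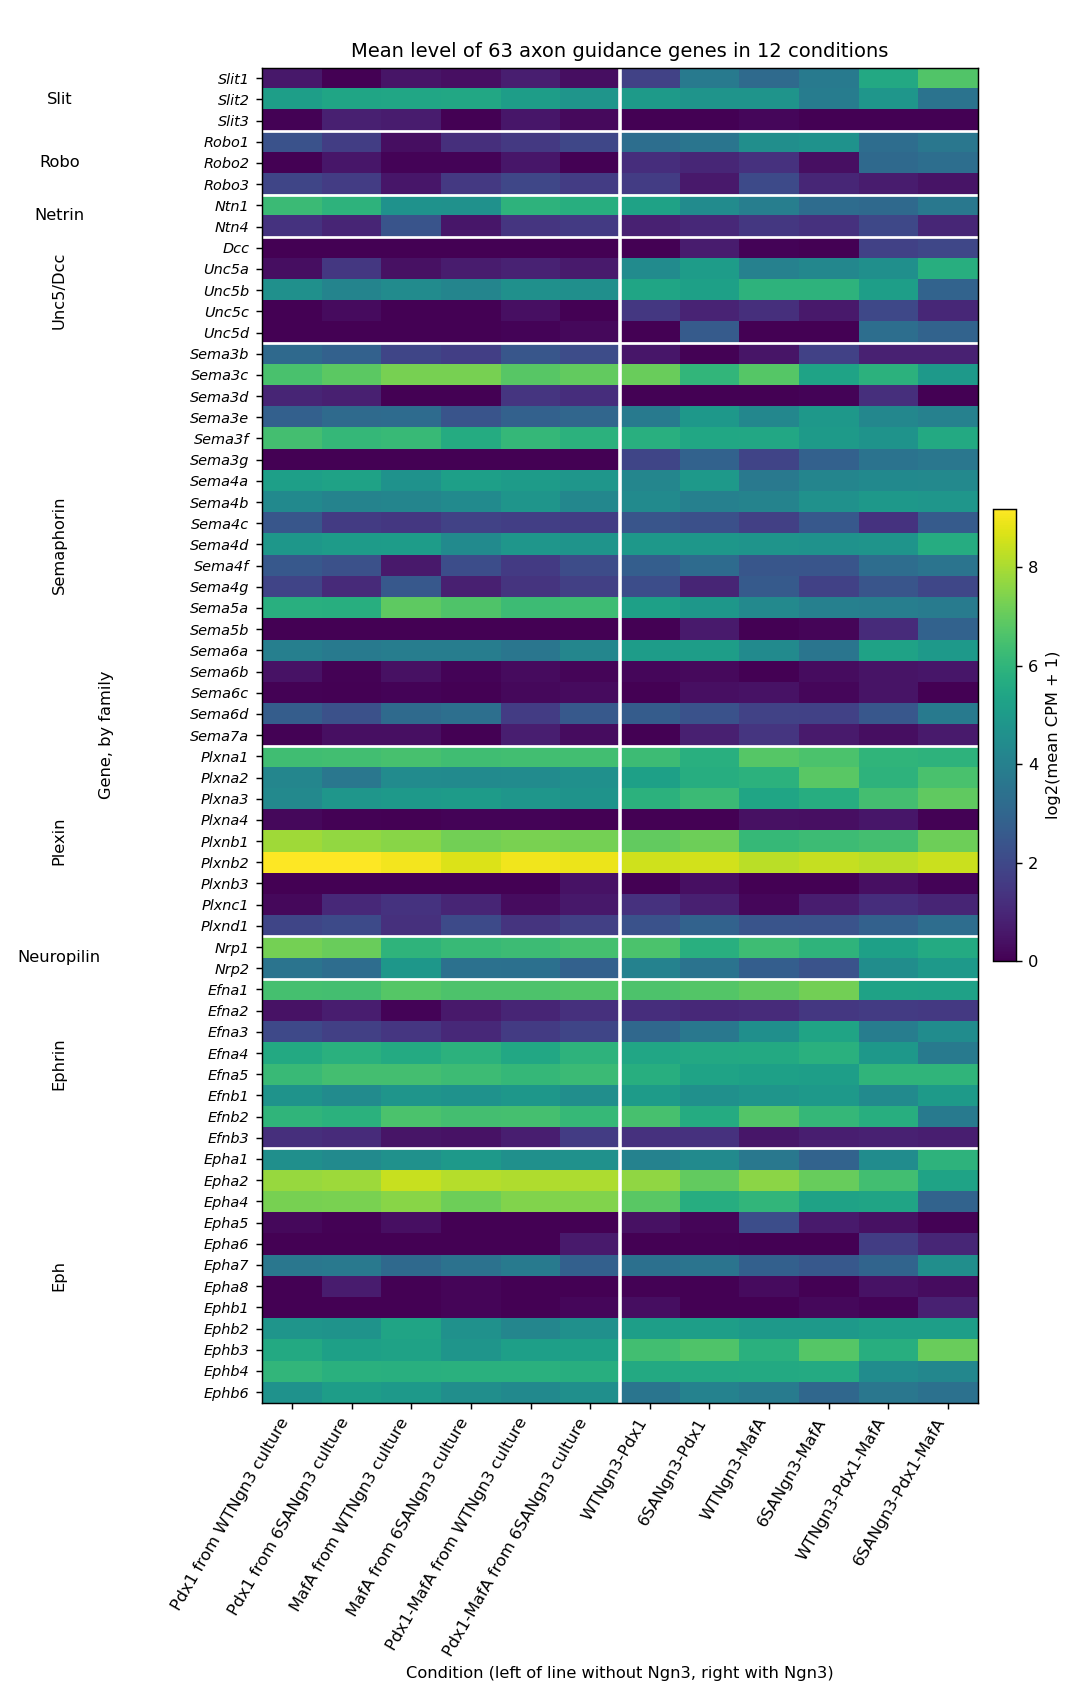
Heat map of the mean level of the 63 tested members (rows, grouped by family) in the 12 conditions (columns), coloured by log2(mean CPM + 1), with a white line between conditions without Ngn3 on the left and with Ngn3 on the right. Slit1, Unc5a, Sema3g and Efna3 are dark (low) on the left and brighter (higher) on the right, and Epha4 and Sema5a show the reverse.

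The main comparison asks which members differ between cells with and without Ngn3, averaged over the 3 partner combinations and both cultures. A member was called where edgeR's quasi-likelihood test gave an adjusted p (Benjamini-Hochberg over 24004 genes) under 0.05. Of the 63 tested members, 14 were called higher and 14 lower with Ngn3, where 11.1% of all genes tested were called higher and 10.5% lower. Among ligands 5 of 32 were higher and 9 lower, and among receptors 9 of 31 were higher and 5 lower. The members higher with Ngn3 were Unc5a, Unc5b, Unc5c, Robo1, Robo2, Plxna2, Plxna3, Epha5 and Ephb3 among receptors and Slit1, Sema3e, Sema3g, Sema6a and Efna3 among ligands. The members lower with Ngn3 were the ligands Slit2, Slit3, Ntn1, Sema3b, Sema3c, Sema3f, Sema5a, Efna4 and Efna5 and the receptors Plxnb2, Epha2, Epha4, Ephb4 and Ephb6. No member had every sample with Ngn3 above every sample without it, or the reverse, where 0.542% of all genes lay wholly above and 0.15% wholly below. The median log2 fold change of the members was 0.14, against 0.07 over all genes tested. For 11 members, among them Dcc, Sema5b and Unc5d, the fold change over all combinations could not be determined because whole conditions were at 0 on both sides. The members' median includes the fitted values of these 11. Leaving out each of the 32 samples in turn, 18 of the 28 calls held in every fit, 11 of the 14 higher and 7 of the 14 lower. The calls of Efna4, Ephb6 and Sema3c were the least firm, lost in 24, 22 and 12 of these 32 fits.

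**Figure D2:**
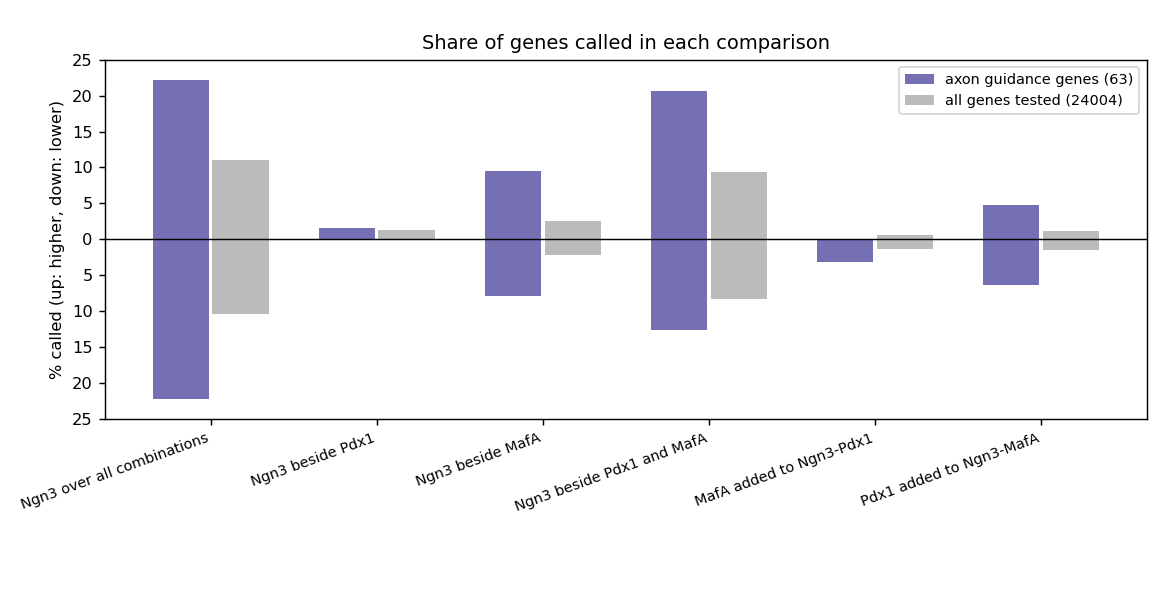
Percent of the 63 tested members and of all 24004 genes tested that were called higher (bars up) or lower (bars down) at adjusted p under 0.05 in 6 comparisons. The members' bars are longest for Ngn3 over all combinations and beside Pdx1 and MafA together, where all genes also have their longest bars.

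**Figure D3:**
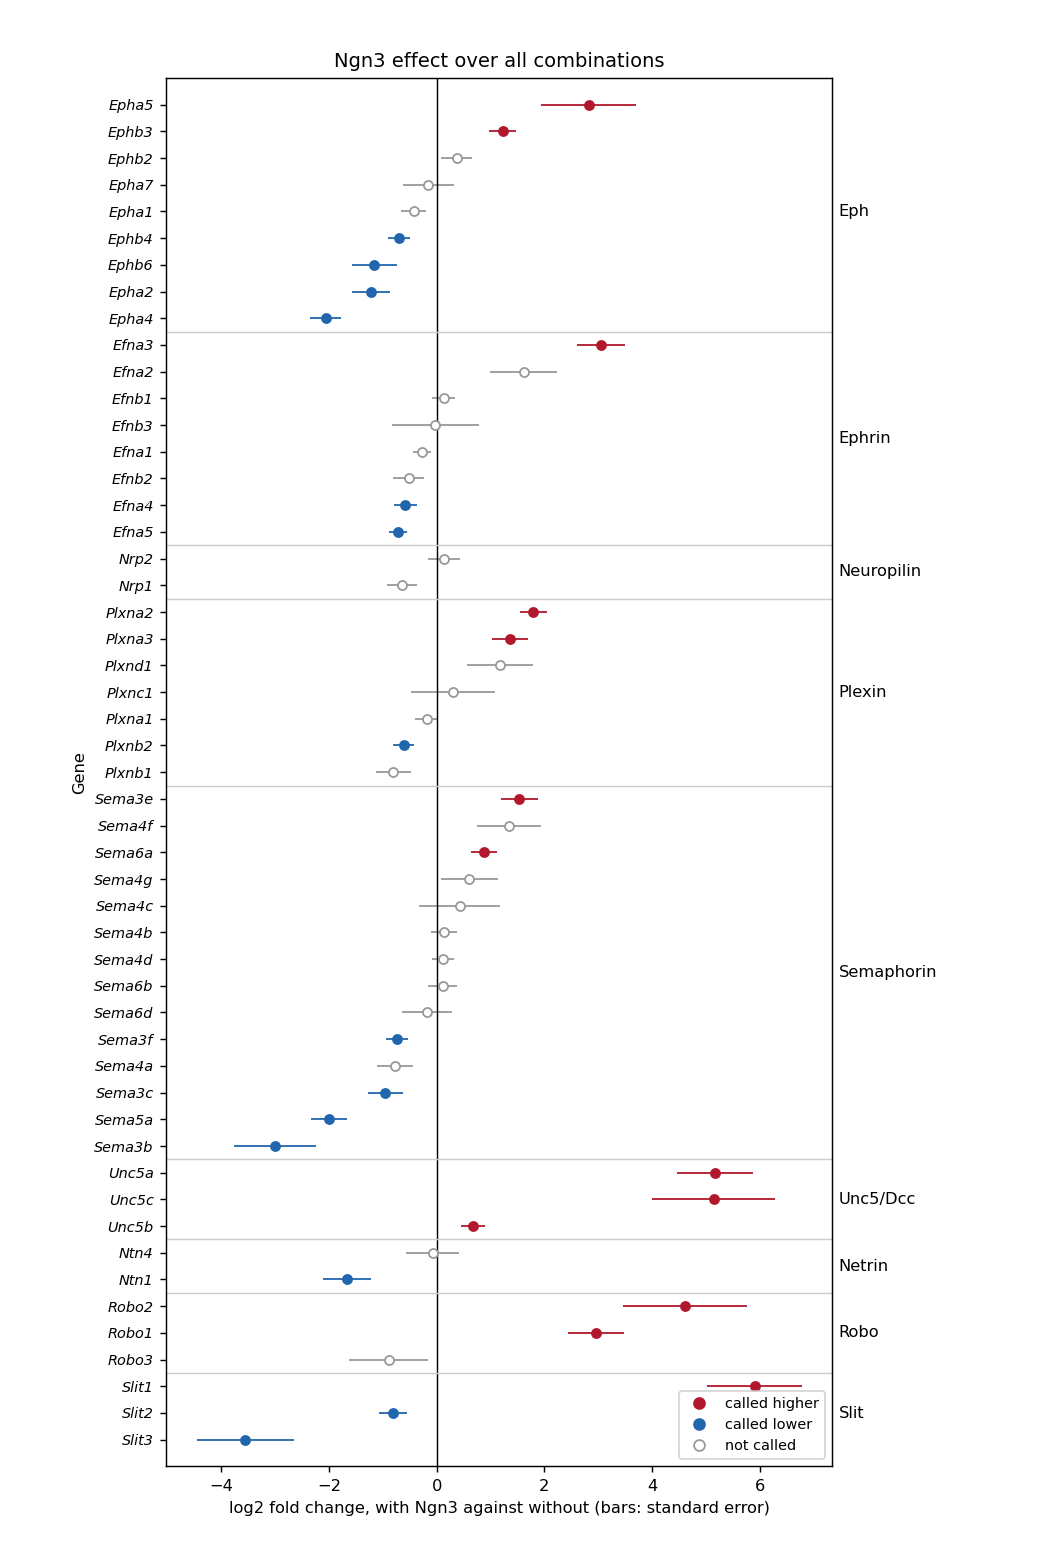
Log2 fold change with Ngn3 against without it over all combinations, with its standard error as the bar, for 51 of the 63 tested members grouped by family. Filled red points were called higher, filled blue points lower, and open grey points were not called, and Sema3g and the 11 members without a determined fold change are left out.

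Within the Slit family, the members moved in opposite directions. Slit1 (ENSMUSG00000025020, chromosome 19, 41600257 to 41743665, minus strand) was at 0 to 1.92 CPM without Ngn3, with a median of 0, and at 0 to 125 CPM with it, with a median of 6.93. The highest values were those of Ngn3-Pdx1-MafA, where WTNgn3 replicates 1 to 3 had 84.0, 51.8 and 2.39 CPM and 6SANgn3 replicates 1 and 2 had 76.4 and 125 CPM, so 4 of these 5 samples stood far above the highest sample without Ngn3 and WTNgn3 replicate 3 just above it. Its log2 fold change over all combinations was 5.90 (SE 0.87, adjusted p = 1.22e-05), and the call held in each of the 32 fits without 1 sample. Slit2 (chromosome 5, 47983138 to 48307733, plus strand), the Slit with the highest mean over all 32 samples, was at 9.59 to 71.9 CPM without Ngn3 (median 28.7) and at 7.99 to 46.0 CPM with it (median 18.7). The groups overlapped widely, and its log2 fold change was -0.81 (SE 0.26, adjusted p = 0.0251). Its call was lost without Pdx1 from 6SANgn3 culture replicate 1 (adjusted p = 0.119), Pdx1 from WTNgn3 culture replicate 2 (0.0583), Pdx1-MafA from WTNgn3 culture replicate 3 (0.0689), MafA from WTNgn3 culture replicate 2 (0.0701) and 6SANgn3-Pdx1-MafA replicate 1 (0.0504). Slit3 had 3 counts in all 17 samples with Ngn3 together and 53 in the 15 without, a ratio of 21.9 per count sequenced in favour of cells without Ngn3 (95% exact interval 7.10 to 110, counting error only). Its adjusted p of 0.00754 rose to 1 without MafA from 6SANgn3 culture replicate 1, Pdx1 from WTNgn3 culture replicate 1 or MafA from WTNgn3 culture replicate 2, each of which left a condition wholly at 0, and DESeq2 did not call it.

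Robo1 and Robo2, receptors of the Slits, rose with Ngn3. Robo1 (ENSMUSG00000022883, chromosome 16, 72308306 to 73046095, plus strand) was at 0 to 4.91 CPM without Ngn3 (median 1.78) and at 1.59 to 52.3 CPM with it (median 11.2). Its highest values were in Ngn3-MafA, where the 6 samples lay between 9.78 and 52.3 CPM, all above the 0 to 2.25 CPM of the 5 MafA samples. The log2 fold change over all combinations was 2.96 (SE 0.53, adjusted p = 0.000114). Robo2 was at most at 1.38 CPM without Ngn3 and at 0 to 18.9 CPM with it, with a log2 fold change of 4.61 (SE 1.16, adjusted p = 0.00465). That call was lost, with an adjusted p of 1, without WTNgn3-MafA replicate 1 or 6SANgn3-MafA replicate 1, the samples that carried its counts in their conditions. The first of them is also the sample in which the fibroblast markers stood at 296 CPM, whose part was not tested. Robo3, a divergent Robo known from midline crossing, was not called (log2 fold change -0.89, SE 0.73, adjusted p = 0.507). Summed over the family, Robo levels were 19.2 ± 12.7 CPM (SD, n = 17) with Ngn3 and 4.33 ± 3.42 CPM (SD, n = 15) without.

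Of the netrins and their receptors, Ntn1 was lower and Unc5a, Unc5b and Unc5c were higher with Ngn3. Ntn1 (chromosome 11, 68209364 to 68400823, minus strand), the main netrin of these cells, was at 14 to 146 CPM without Ngn3 (median 26.3) and at 0.439 to 80.5 CPM with it (median 13.3), with overlap between the groups. Its log2 fold change was -1.66 (SE 0.44, adjusted p = 0.00641). Ntn4, a laminin-like netrin, had means of 1.55 CPM with Ngn3 and 1.70 CPM without (log2 fold change -0.07, SE 0.49). Unc5a (ENSMUSG00000025876, chromosome 13, 54949411 to 55006018, plus strand) had the lowest adjusted p of all members. It was at 0 to 3.26 CPM without Ngn3 (median 0.541) and at 0.458 to 69.7 CPM with it (median 23.4), and the groups overlapped only at the low end. The log2 fold change was 5.16 (SE 0.70, adjusted p = 3.1e-06). Exons of Unc5a overlap those of Hk3 on the other strand, and the strand setting of the counting was not stated, so reads of the overlap could not be assigned to 1 of the genes. The same holds for other called members with antisense overlaps: Epha1 (Zyx), Ephb4 (Zan), Efna3 (Gm15998), Efna4 (4731419I09Rik) and Unc5c (Gm15688). Unc5b, the Unc5 receptor with the highest mean over all samples, was at 12.7 to 31.2 CPM without Ngn3 (median 18.0) and at 2.95 to 94.5 CPM with it (median 41.5), with a log2 fold change of 0.68 (SE 0.22, adjusted p = 0.0246). Samples with Ngn3 thus lay on both sides of the samples without. The Unc5b call was lost without 6SANgn3-Pdx1-MafA replicate 1 (adjusted p = 0.12), Pdx1 from WTNgn3 culture replicate 2 (0.0655), MafA from WTNgn3 culture replicate 1 (0.0571) or WTNgn3-MafA replicate 1 (0.0512). Unc5c was at most at 0.919 CPM without Ngn3 and at most at 5.12 CPM with it (log2 fold change 5.14, SE 1.14, adjusted p = 0.00199). The summed level of Unc5a to Unc5d and Dcc was 42.1 to 112 CPM in the 17 samples with Ngn3 and 12.7 to 31.7 CPM in the 15 without, with no overlap.

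Of the 19 tested semaphorins, 3 were higher and 4 lower with Ngn3, and 5 of these 7 were secreted class 3 members. Over all genes tested, 11.1% were called higher and 10.5% lower. Sema3g (ENSMUSG00000021904, chromosome 14, 31217860 to 31230352, plus strand) had no count in any of the 15 samples without Ngn3, and had a count in 15 of the 17 samples with it, at 0 to 21.1 CPM (median 3.14). Its mean with Ngn3, 6.39 ± 7.04 CPM (SD, n = 17), lay at least 14.8-fold above the mean floor of 3 counts per library in samples without Ngn3 (adjusted p = 3.05e-05). Sema3e, a ligand of Plxnd1, was at 0.527 to 10.4 CPM without Ngn3 (median 6.53) and at 6.57 to 49.5 CPM with it (median 16.8), with a log2 fold change of 1.54 (SE 0.35, adjusted p = 0.00164). Sema6a, a transmembrane ligand of Plxna2, was at 7.94 to 31.8 CPM without Ngn3 (median 11.1) and at 3.97 to 50.7 CPM with it (median 28.0), with a log2 fold change of 0.88 (SE 0.25, adjusted p = 0.00975). All 3 had a higher median with Ngn3, and the 4 others that were called had a lower one. Sema5a (ENSMUSG00000022231, chromosome 15, 32244810 to 32696341, plus strand), a transmembrane semaphorin, was at 32.4 to 165 CPM without Ngn3 (median 74.0) and at 2.66 to 51.9 CPM with it (median 17). Its log2 fold change was -2.0 (SE 0.33, adjusted p = 4.69e-05), and the call held in all 32 fits without 1 sample. Sema3b, Sema3c and Sema3f were lower with log2 fold changes of -3.0 (SE 0.75, adjusted p = 0.00419), -0.95 (SE 0.33, adjusted p = 0.0356) and -0.73 (SE 0.20, adjusted p = 0.00869). Sema3c, the most abundant of them, was at 44.1 to 245 CPM without Ngn3 (median 125) and at 7.12 to 206 CPM with it (median 61.1), a wide overlap. The Sema3b call was lost without MafA from WTNgn3 culture replicate 1 (adjusted p = 0.0525), and that of Sema3c in 12 fits without 1 sample (0.0520 to 0.0839).

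Among the semaphorin receptors, Plxna2 and Plxna3 were higher and Plxnb2 lower. Plxna2 (ENSMUSG00000026640, chromosome 1, 194618218 to 194816869, plus strand) was at 7.87 to 39.3 CPM without Ngn3 (median 18.0) and at 24.4 to 181 CPM with it (median 52.2), with a small overlap. Its log2 fold change was 1.79 (SE 0.25, adjusted p = 3.7e-06). Plxna3, which pairs with neuropilins for class 3 semaphorins, was at 8.66 to 55.5 CPM without Ngn3 (median 26.0) and at 12.5 to 174 CPM with it (median 50.1), with a log2 fold change of 1.36 (SE 0.33, adjusted p = 0.00314). Plxna1, the most abundant A-class plexin, differed little (log2 fold change -0.18, SE 0.21, adjusted p = 0.719). Plxnb2 (chromosome 15, 89155549 to 89180788, minus strand) was at 197 to 773 CPM without Ngn3 (median 428) and at 246 to 576 CPM with it (median 306), the samples with Ngn3 lying within the range of those without. Its log2 fold change was -0.61 (SE 0.19, adjusted p = 0.0194), and its call was lost without replicate 1 of Pdx1 from WTNgn3 culture (0.0597) or of Pdx1 from 6SANgn3 culture (0.084). The neuropilins were not called over all combinations, with log2 fold changes of -0.64 (SE 0.29, adjusted p = 0.119) for Nrp1 and 0.14 (SE 0.30, adjusted p = 0.994) for Nrp2.

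Ephrins and their receptors changed in both directions with Ngn3. Of 8 ephrins 1 was higher and 2 lower, and of 12 tested Eph receptors 2 were higher and 4 lower. Over all genes tested, 11.1% were called higher and 10.5% lower. Efna3 (ENSMUSG00000028039, chromosome 3, 89313899 to 89322965, minus strand) came closest to separating the groups, at 0 to 5.43 CPM without Ngn3 (median 2.31) and at 5.25 to 66.5 CPM with it (median 11.3). Its log2 fold change was 3.04 (SE 0.44, adjusted p = 8.07e-06). Its neighbours on chromosome 3, Efna1 (89271733 to 89281142) and Efna4 (89333390 to 89338028), both on the minus strand, had log2 fold changes of -0.27 (SE 0.16, adjusted p = 0.304) and -0.58 (SE 0.21, adjusted p = 0.0468), the latter lost in 24 of 32 fits without 1 sample (0.0520 to 0.136). Efna5, another A-class ephrin, was at 41.0 to 114 CPM without Ngn3 (median 75.0) and at 23.6 to 87.0 CPM with it (median 47.9), with a log2 fold change of -0.72 (SE 0.17, adjusted p = 0.00233).

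Epha4 (ENSMUSG00000026235, chromosome 1, 77367185 to 77515088, minus strand), which binds ephrins of both classes, had the lowest adjusted p of the members that fell. It was at 80.1 to 232 CPM without Ngn3 (median 158) and at 2.49 to 140 CPM with it (median 44.9), with a log2 fold change of -2.06 (SE 0.29, adjusted p = 5.35e-06). Epha2 (chromosome 4, 141301240 to 141329384, plus strand) was at 136 to 463 CPM without Ngn3 (median 263) and at 4.75 to 287 CPM with it (median 126), with a log2 fold change of -1.22 (SE 0.35, adjusted p = 0.0116). Both groups overlapped for either receptor, and the lowest samples were in Ngn3-Pdx1-MafA. Ephb4, the receptor of Efnb2, and Ephb6, a receptor without kinase activity, were lower with log2 fold changes of -0.69 (SE 0.20, adjusted p = 0.0120) and -1.16 (SE 0.42, adjusted p = 0.0485), the Ephb6 call being lost in 22 of 32 fits without 1 sample (0.0533 to 0.152). Ephb3, a B-class receptor of epithelial sorting, was higher, at 16.1 to 56.6 CPM without Ngn3 (median 34.2) and at 25.7 to 206 CPM with it (median 62.2), with a log2 fold change of 1.22 (SE 0.24, adjusted p = 0.000415). Epha5 was at most at 0.617 CPM without Ngn3 and at most at 8.74 CPM with it, a pooled ratio of 19.4 (95% exact interval 8.07 to 60.7, counting error only), with an adjusted p of 0.0238. Its call was lost without WTNgn3-Pdx1 replicate 1 (0.0511) and, with an adjusted p of 1, without 6SANgn3-Pdx1 replicate 2 or 6SANgn3-Pdx1-MafA replicate 2. DESeq2 did not call it. Summed over all 14 receptors, Eph levels were 389 ± 118 CPM (SD, n = 17) with Ngn3 and 608 ± 188 CPM (SD, n = 15) without.

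**Figure D4:**
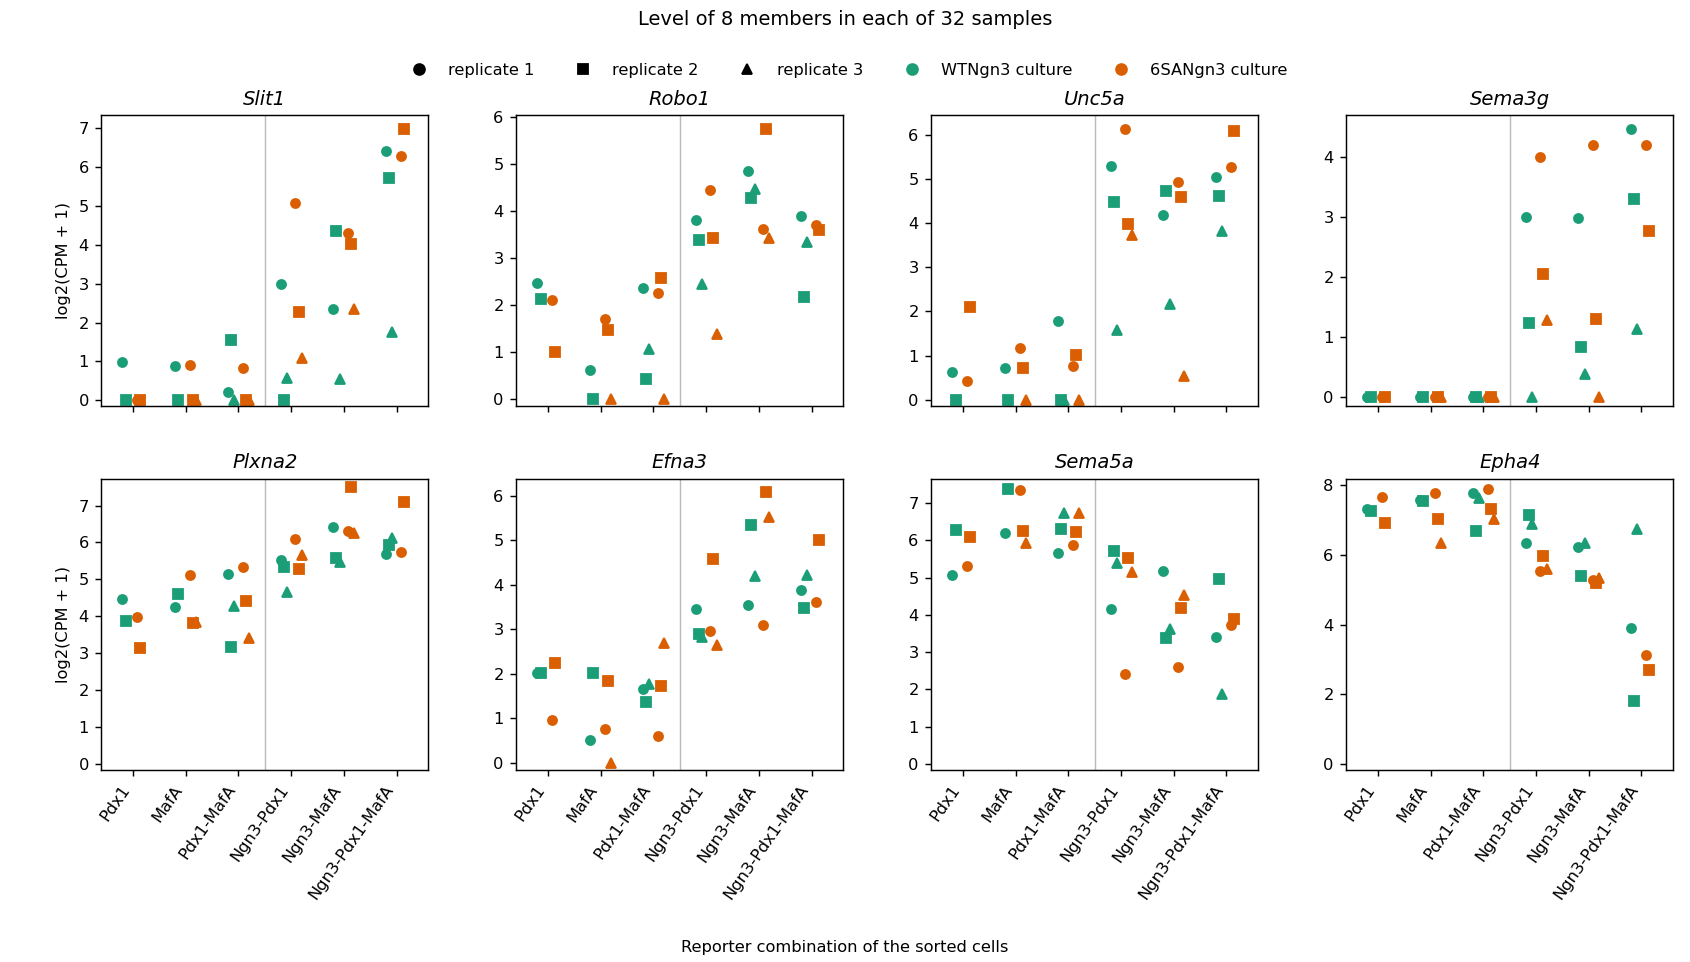
Level of Slit1, Robo1, Unc5a, Sema3g, Plxna2, Efna3, Sema5a and Epha4 in each of the 32 samples as log2(CPM + 1), by factor combination, with circles, squares and triangles for replicates 1, 2 and 3, green for WTNgn3 and orange for 6SANgn3 cultures. The Ngn3-Pdx1-MafA triangle is the WTNgn3 replicate 3, which has the highest Epha4 and the lowest Slit1 of its 5 samples.

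The same contrast was made beside each partner factor. Beside Pdx1, samples of passage 5 were present with Ngn3 and absent without it, so Ngn3 and passage cannot be fully told apart there. Beside Pdx1 (6 Ngn3-Pdx1 against 4 Pdx1 samples), 1 member was called higher and none lower, where 1.32% of all genes were called higher and 0.171% lower. This was Unc5a, at 0, 0.336, 0.541 and 3.26 CPM in the 4 Pdx1 samples and at 1.97 to 69.7 CPM (median 18.1) in Ngn3-Pdx1, with a log2 fold change of 5.02 (SE 1.27, adjusted p = 0.0378). Its call was lost in 7 of 32 fits without 1 sample (0.0558 to 0.269), namely without any 1 of the 4 Pdx1 samples, of WTNgn3-Pdx1 replicates 1 and 2 or of 6SANgn3-Pdx1 replicate 1. In these 7 fits the log2 fold change of Unc5a was 4.40 to 7.43, highest without Pdx1 from WTNgn3 culture replicate 1. Beside Pdx1, same-numbered samples deviated together, and a fit blocked on the replicate number called 7 members higher and 1 lower, where 3.49% and 0.725% of all genes were called. The added members were Slit1, Sema3g, Sema6a, Plxna2, Plxna3 and Ephb3, all higher, and Sema3b, lower (log2 fold change -5.48 without the block, adjusted p = 0.0505 without and 0.0117 with it). DESeq2 called 5 members higher and 1 lower, where it called 780 of all genes higher and 131 lower.

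Beside MafA (6 Ngn3-MafA against 5 MafA samples), 6 members were called higher and 5 lower, where 2.5% and 2.17% of all genes were called. Efna3 was at 0, 0.429, 0.691, 2.59 and 3.08 CPM in the MafA samples and at 7.51 to 66.5 CPM (median 28.5) in Ngn3-MafA, without overlap, with a log2 fold change of 4.46 (SE 0.83, adjusted p = 0.00118). Robo1 was at 0, 0, 0.536, 1.78 and 2.25 CPM in MafA and at 9.78 to 52.3 CPM (median 19.6) in Ngn3-MafA, also without overlap (log2 fold change 5.04, SE 1.03, adjusted p = 0.00281). Unc5b was at 12.7, 14.7, 18.0, 23.1 and 23.5 CPM in MafA and at 36.1 to 94.5 CPM (median 56.3) in Ngn3-MafA (log2 fold change 1.69, SE 0.39, adjusted p = 0.00726). All 3 genes had every Ngn3-MafA sample above every MafA sample. Unc5a (log2 fold change 4.90, SE 1.21, adjusted p = 0.0146), Plxna2 (1.99, SE 0.43, adjusted p = 0.00444) and Sema3g, which was at least 8.25-fold higher than the floor of MafA samples (adjusted p = 0.0324), were the others that rose. The log2 fold change of Unc5a was 7.41 without MafA from WTNgn3 culture replicate 1 and 4.63 without its replicate 2. Sema5a was at 60.4, 72.8, 74.9, 161 and 165 CPM in MafA and at 5.07 to 35.5 CPM (median 14.2) in Ngn3-MafA, with a log2 fold change of -2.70 (SE 0.57, adjusted p = 0.00341). Epha1, an Eph receptor of epithelia, was at 23.4, 25, 25.8, 29.5 and 33.5 CPM in MafA and at 2.39 to 17 CPM (median 8.97) in Ngn3-MafA, with a log2 fold change of -1.60 (SE 0.39, adjusted p = 0.0129). Both lay wholly below the MafA samples. The share of all genes separated in either way was counted only for all samples with against without Ngn3, not for this comparison. Efna5 (-1.20, SE 0.29, adjusted p = 0.0122), Epha4 (-1.73, SE 0.48, adjusted p = 0.035) and Nrp2 (-1.76, SE 0.52, adjusted p = 0.0492) were the others that fell.

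Of these 11 calls, those of Efna3 and Sema5a held in every fit without 1 sample, and the others were each lost in at least 1. Without MafA from WTNgn3 culture replicate 1, 3 of the 63 members were called beside MafA, and without its replicate 2, 5 were called. The first of these fits ended the calls of Plxna2 (adjusted p = 0.0648), Unc5b (0.0851), Epha1 (0.0564), Unc5a (0.0977) and Efna5 (0.0522), and the second those of Robo1 (0.0516), Unc5a (0.137) and Efna5 (0.0517). The calls of Nrp2, Epha4 and Sema3g were lost in 26 (0.0508 to 0.349), 10 (0.0512 to 0.11) and 6 (0.0502 to 0.193) of the 32 fits, among them fits without an Ngn3-MafA sample and, for Nrp2, without samples of other combinations. With the replicate block, which the samples' deviations allowed here too, 10 members were called higher and 8 lower (5.12% and 3.73% of all genes), the added ones being Slit1, Sema3e, Unc5c and Ephb3, higher, and Slit2, Plxnb1 and Ephb6, lower.

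Beside Pdx1 and MafA together (5 Ngn3-Pdx1-MafA against 6 Pdx1-MafA samples), 13 members were called higher and 8 lower, where 9.42% and 8.4% of all genes were called. Those higher were 8 receptors and 5 ligands, and those lower were 3 receptors and 5 ligands. The members' median log2 fold change was 0.50, against 0.05 over all genes, or 0.46 with the 5 members at 0 on a side set to their bounds. Epha4 was at 101 to 232 CPM (median 177) in Pdx1-MafA and at 13.9, 2.49 and 104 CPM in WTNgn3-Pdx1-MafA replicates 1 to 3 and 7.73 and 5.56 CPM in 6SANgn3-Pdx1-MafA replicates 1 and 2. Of these 5 samples 4 lay far below every Pdx1-MafA sample, and WTNgn3 replicate 3 lay within the Pdx1-MafA range. The log2 fold change of Epha4 was -3.39 (SE 0.56, adjusted p = 9.23e-05). Slit1 was at 0 to 1.92 CPM in Pdx1-MafA, with a log2 fold change of 7.22 (SE 1.34, adjusted p = 0.000413), and Unc5a was at 0 to 2.45 CPM against 32.3, 23.6, 13.2, 37.8 and 67.2 CPM (log2 fold change 5.56, SE 1.09, adjusted p = 0.000669). Sema3g, with 21.1, 8.78 and 1.20 CPM in the WTNgn3 and 17.3 and 5.82 CPM in the 6SANgn3 samples, was at least 30.2-fold higher than the floor of the Pdx1-MafA samples (adjusted p = 0.00148).

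Several members were called beside both factors that were not called over all combinations. Unc5d, an Unc5 receptor, was detected in all 5 Ngn3-Pdx1-MafA samples, at 7.13, 15.7 and 3.99 CPM with WTNgn3 and 5.36 and 7.81 CPM with 6SANgn3, and at 0 to 0.433 CPM in the 6 Pdx1-MafA samples. The pooled ratio was 71.9 (95% exact interval 32.7 to 197, counting error only; adjusted p = 0.00778). Sema5b, a relative of Sema5a, was at 0.891, 1.02 and 1.73 CPM with WTNgn3 and 3.26 and 9.38 CPM with 6SANgn3, at 0 in all 6 Pdx1-MafA samples, and so at least 9.07-fold higher (adjusted p = 0.00582). Dcc was at 0.162, 7.02 and 0 CPM with WTNgn3 and 0.475 and 5.30 CPM with 6SANgn3, at 0 in all Pdx1-MafA samples, and at least 7.22-fold higher (adjusted p = 0.0186). Dcc rested on 2 of the 5 samples, and its call was lost without 6SANgn3-Pdx1-MafA replicate 2 (0.0586) or WTNgn3-Pdx1-MafA replicate 2 (0.0659). DESeq2 called none of Unc5d, Sema5b and Dcc. Nrp2, the class 3 co-receptor, was at 2.00 to 14.1 CPM (median 8.21) in Pdx1-MafA and at 26.2, 24.4, 15, 29 and 32.1 CPM in Ngn3-Pdx1-MafA, every sample above (log2 fold change 1.76, SE 0.52, adjusted p = 0.018). Efna1 was at 65.5 to 144 CPM (median 92.4) and at 27.1, 32, 55.4, 39.1 and 35.4 CPM, every sample below, with a log2 fold change of -1.41 (SE 0.29, adjusted p = 0.0011).

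The other members called beside both factors moved as they did over all combinations, except that Efnb2 had not been called there. Plxna2, Efna3, Plxna3, Robo2, Ephb3 and Sema6a were higher, with log2 fold changes of 1.78 (SE 0.40), 2.85 (SE 0.70), 1.94 (SE 0.55), 6.71 (SE 1.88), 1.24 (SE 0.40) and 1.25 (SE 0.41). Their adjusted p were 0.00254, 0.00472, 0.0141, 0.0144, 0.0318 and 0.0329. Sema5a, Ephb4, Efna4, Epha2, Ntn1 and Efnb2 were lower, with log2 fold changes of -2.54 (SE 0.60), -1.47 (SE 0.36), -1.44 (SE 0.37), -2.21 (SE 0.64), -2.58 (SE 0.81) and -1.59 (SE 0.52). Their adjusted p were 0.00376, 0.00446, 0.00711, 0.0163, 0.0266 and 0.0312. The receptor and ligand pair Ephb4 and Efnb2 was thus lower on both sides. Calls were lost without 6SANgn3-Pdx1-MafA replicate 1 for Efna4 (0.0593) and Epha2 (0.0947) and without 6SANgn3-Pdx1-MafA replicate 2 for Plxna3 (0.0523), and those of Ephb3, Sema6a, Efnb2 and Ntn1 in 7, 7, 5 and 4 of 32 fits. Scaling by DESeq2's size factors in edgeR moved the median of all genes in this comparison from 0.05 to 0.17. With it 14 members were higher and 8 lower, where 2627 of all genes were called higher and 1756 lower. WTNgn3-Pdx1-MafA replicate 3 stood apart from the other 4 samples in Efnb2 (137 against 6.00 to 16.9 CPM), Epha2 (222 against 4.75 to 73.8 CPM) and Sema3c (158 against 7.12 to 54.0 CPM) besides Epha4 and Slit1, and without it 14 members were called higher and 11 lower.

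**Figure D5:**
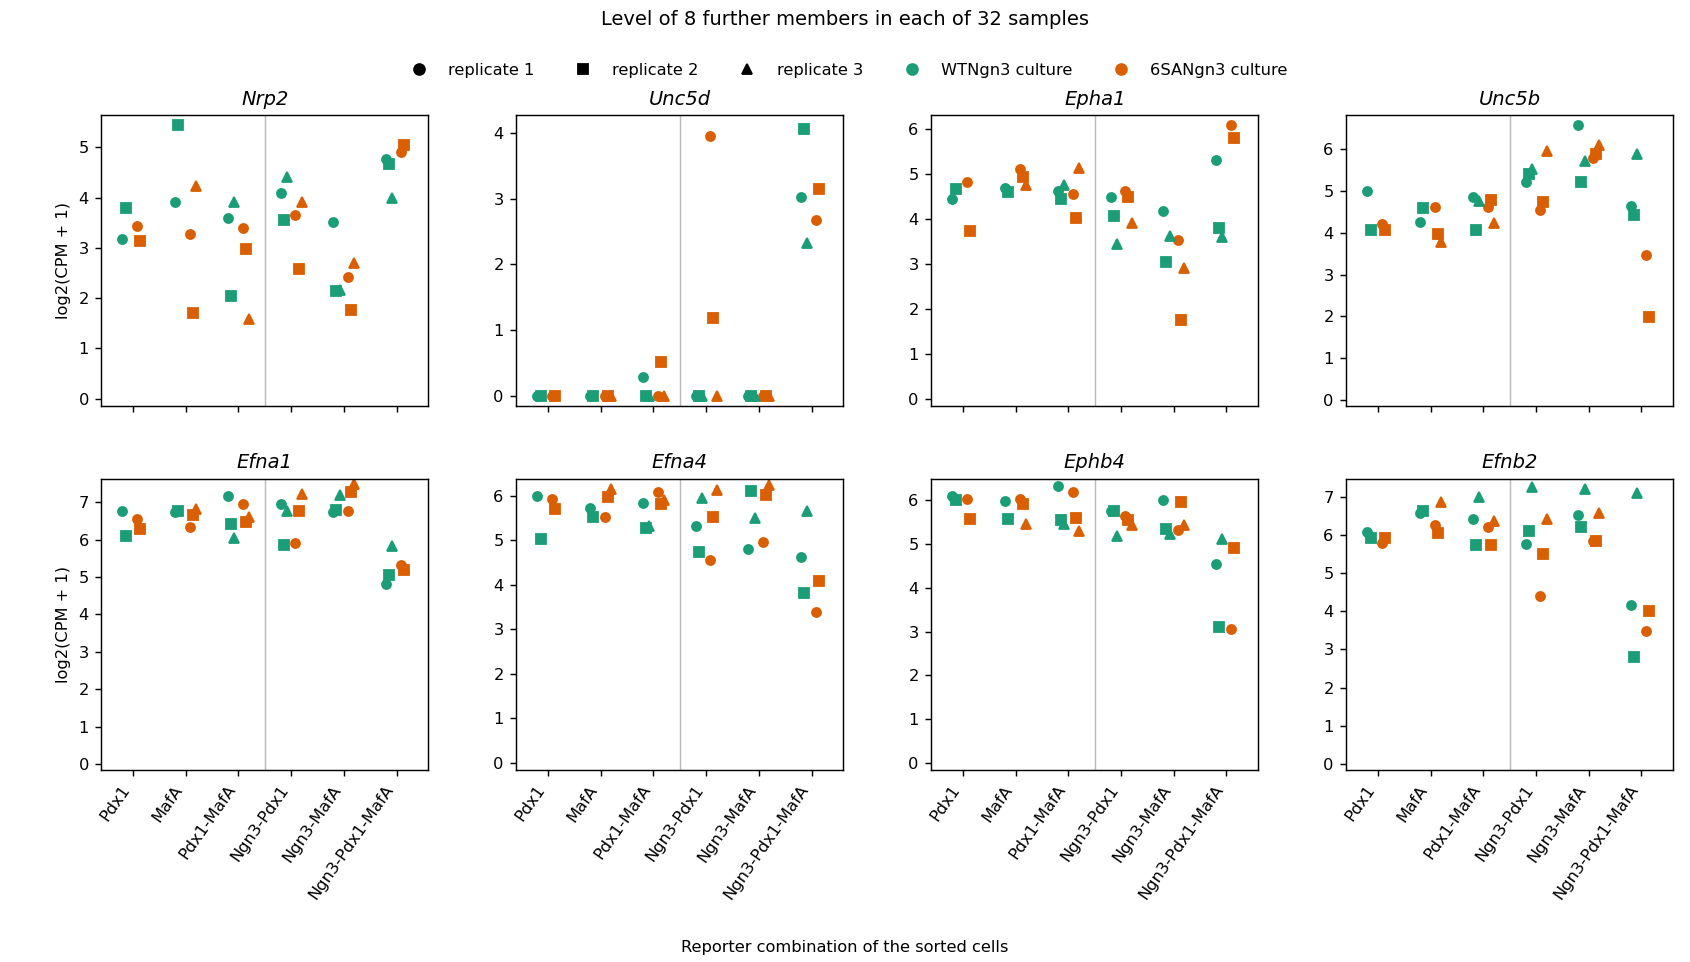
Level of Nrp2, Unc5d, Epha1, Unc5b, Efna1, Efna4, Ephb4 and Efnb2 in each of the 32 samples as log2(CPM + 1), by factor combination, with the same symbols and colours for replicate and culture as in the plot of Slit1 and 7 other members. The Ngn3-Pdx1-MafA samples are low in Efna1 (27.1 to 55.4 CPM) and, apart from WTNgn3 replicate 3, in Efnb2.

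The effect of the third factor was measured within cells that had Ngn3. These comparisons use the same Ngn3-Pdx1-MafA samples as the one beside Pdx1 and MafA, so their calls are not separate evidence. The summed duct markers had medians of 4725 CPM in Ngn3-MafA, 8049 CPM in Ngn3-Pdx1 and 1853 CPM in Ngn3-Pdx1-MafA. Those of the endocrine markers were 5038, 3496 and 11933 CPM in the same order. The part of these markers in the differences below was not tested. With Pdx1 added to Ngn3-MafA (5 against 6 samples), 3 members were called higher and 4 lower, where 1.17% and 1.56% of all genes were called. Nrp2 was at 2.39 to 10.4 CPM (median 3.91) in Ngn3-MafA, all below the 15 to 32.1 CPM of Ngn3-Pdx1-MafA (log2 fold change 2.41, SE 0.53, adjusted p = 0.0132). Epha1 was at 2.39 to 17 CPM (median 8.97) in Ngn3-MafA and at 38.6, 13, 11.2, 66.7 and 54.3 CPM with all 3 factors, 3 of which lay above the Ngn3-MafA range (log2 fold change 2.01, SE 0.39, adjusted p = 0.00575). Unc5d was at 0 in all 6 Ngn3-MafA samples and at least 23.5-fold higher with Pdx1 (adjusted p = 0.0111, not called by DESeq2), and in the 6 Ngn3-Pdx1 samples it had 14.5 and 1.28 CPM in 6SANgn3-Pdx1 replicates 1 and 2 and 0 in the other 4. Efna1 (105 to 179 CPM in Ngn3-MafA, median 128) fell by 1.82 on the log2 scale (SE 0.30, adjusted p = 0.00131), without overlap. Unc5b was at 36.1 to 94.5 CPM in Ngn3-MafA and at 24.1, 20.3, 58.4, 10 and 2.95 CPM with Pdx1 added, with a log2 fold change of -2.02 (SE 0.39, adjusted p = 0.00563). Only WTNgn3 replicate 3 reached the Ngn3-MafA range. Efna4 (-1.42, SE 0.37, adjusted p = 0.0358) and Ephb4 (-1.26, SE 0.35, adjusted p = 0.0499) were the other members called lower, lost in 8 (0.0587 to 0.18) and 23 (0.0504 to 0.242) of 32 fits without 1 sample. With the replicate block, 7 were higher and 6 lower (4.42% and 4.07% of all genes), the added ones being Sema5b, Sema6a, Plxna3 and Efna5, higher, and Efnb2 and Epha4, lower. Without WTNgn3-Pdx1-MafA replicate 3, 7 were higher and 8 lower.

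With MafA added to Ngn3-Pdx1 (5 against 6 samples), 2 members were called lower and none higher, where 1.35% of all genes were called lower and 0.525% higher. Efna1 was at 57.0 to 149 CPM (median 108) in Ngn3-Pdx1, all above the 27.1 to 55.4 CPM with all 3 factors, with a log2 fold change of -1.42 (SE 0.29, adjusted p = 0.00802). Epha4 was at 44.9 to 140 CPM (median 70.6) in Ngn3-Pdx1, above 4 of the 5 Ngn3-Pdx1-MafA samples, with a log2 fold change of -2.21 (SE 0.52, adjusted p = 0.0219). The Efna1 call was lost without 6SANgn3-Pdx1-MafA replicate 1 (0.0555) or 2 (0.0586), and that of Epha4 without WTNgn3-Pdx1-MafA replicate 1 (0.0592) or 6SANgn3-Pdx1-MafA replicate 1 (0.113) or 2 (0.131). Without WTNgn3-Pdx1-MafA replicate 3, 1 member was called higher and 8 lower, and without 6SANgn3-Pdx1 replicate 1, 3 were higher and 4 lower. DESeq2 called 5 members lower, where it called 369 of all genes higher and 975 lower.

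No member was called between Pdx1 and MafA in cells that shared their Ngn3 state. Beside Ngn3 (Ngn3-Pdx1 against Ngn3-MafA), edgeR called 0.133% of all genes and no member, with 8 members at an unadjusted p under 0.05, DESeq2 called 220 genes higher, 68 lower and no member, and the smallest edgeR adjusted p was 0.324, for Plxna4. Without Ngn3 (Pdx1 against MafA), 0% of all genes and no member were called by edgeR, with 2 members at an unadjusted p under 0.05, and DESeq2 called 20 genes higher, 6 lower and no member. The difference between the Ngn3 effect beside Pdx1 and that beside MafA was tested directly. In edgeR this called no member (0% of all genes), with 7 at an unadjusted p under 0.05, and in DESeq2 11 genes higher, 8 lower and no member. For Nrp2, lower with Ngn3 beside MafA and not called beside Pdx1, this difference was 2.16 on the log2 scale (SE 0.77, adjusted p = 1.0).

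The phospho-mutant and wild-type forms of Ngn3 were compared across the 3 combinations. In cells with Ngn3, edgeR called 0% of all genes and none of the 63 members, with 9 members at an unadjusted p under 0.05, and DESeq2 called 26 genes and no member. The smallest adjusted p was that of Epha4 (log2 fold change -1.50, SE 0.40, adjusted p = 0.780), or 0.409 with the replicate block. In cells without Ngn3, edgeR called 0% of all genes and no member was at an unadjusted p under 0.05, DESeq2 called 6 genes higher, 2 lower and no member, and the smallest p was that of Nrp2 (log2 fold change -0.80, SE 0.45, adjusted p = 1.0). The difference of the Ngn3 effect between the cultures called no member in edgeR (0% of all genes), with 4 members at an unadjusted p under 0.05, and in DESeq2 1 gene higher, 4 lower and no member. Within Ngn3-Pdx1-MafA, whose values are given above for each form, the WTNgn3 and 6SANgn3 samples overlapped for Slit1 and Sema3g. Both 6SANgn3 samples were above the 3 WTNgn3 samples for Unc5a and for Sema5b. The WTNgn3 samples included replicate 3 and the 6SANgn3 samples did not. The share of all genes separated in this way was not counted.

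Slit1, Sema3g, Unc5a and Robo2, all higher with Ngn3, had lower levels in the passage 5 samples. Slit1 in samples with Ngn3 was at 4.11 to 84.0 CPM (median 26.0) in replicate 1, at 0 to 125 CPM (median 17.3) in replicate 2 and at 0.454 to 4.13 CPM (median 1.11) in replicate 3. Sema3g was at 6.94 to 21.1 CPM (median 16), 0.782 to 8.78 CPM (median 2.30) and 0 to 1.43 CPM (median 0.302) in the same order. Unc5a was at 17.2 to 69.7 CPM (median 35.0), 14.9 to 67.2 CPM (median 23.5) and 0.458 to 13.2 CPM (median 3.48), and Robo2 was at 0 in every replicate 3 sample. The endocrine marker sums moved in the same samples, at 1167 to 2051 CPM in the replicate 3 samples with Ngn3 and 3024 to 15093 CPM in the others, and their part in these levels was not tested. These 4 genes were chosen after their values were seen, and the other members higher with Ngn3 were mixed. Unc5b had medians of 30.2, 30.8 and 58.4 CPM in replicates 1, 2 and 3 with Ngn3, Efna3 of 10.4, 27 and 17.4 CPM, Epha5 of 0.202, 0.160 and 0.764 CPM, and Sema3e of 16.9, 19.0 and 16.8 CPM. Medians were also lowest in replicate 3 for Plxna3 (103, 48.3 and 22.5 CPM), Sema6a (37.1, 28.2 and 15.1 CPM) and Ephb3 (82.4, 97.4 and 50.8 CPM). The same held for Unc5c (1.75, 2.26 and 0 CPM), Robo1 (13.4, 10.4 and 9.17 CPM) and Plxna2 (59.6, 53.7 and 49.8 CPM). Without replicate 3, 25 of the 28 calls over all combinations were retained and 26 members were called in all.

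Genes that act with these families inside the cell or at its surface were counted from a list of 49, of which 48 were tested. Over all combinations 15 were called higher and 5 lower with Ngn3, where 11.1% and 10.5% of all genes were called. Crmp1, a collapsin response mediator that transmits semaphorin signals, was at 0 to 1.84 CPM without Ngn3 and at 1.17 to 80.0 CPM with it (median 17.4), with a log2 fold change of 7.08 (SE 0.75, adjusted p = 1.14e-07). Its relatives Dpysl2, Dpysl3, Dpysl4 and Dpysl5 were also higher, with log2 fold changes of 1.12 (SE 0.33), 1.99 (SE 0.28), 2.26 (SE 0.79) and 4.68 (SE 0.84), so that all 5 genes of the collapsin response mediator family were called in one direction. Draxin, a secreted ligand of netrin receptors, had 1 count in 1 of 15 samples without Ngn3 and at most 4.95 CPM with it. Srgap1, a GTPase-activating protein that binds Robo1, was higher (1.77, SE 0.40), as were Fyn, a kinase downstream of Dcc and plexins (1.70, SE 0.33), Mical2 (2.32, SE 0.32), L1cam (3.72, SE 0.85) and Flrt1, of a family of Unc5 ligands (5.15, SE 0.85). The other Flrt genes were lower. Flrt3 was at 79.9 to 323 CPM without Ngn3 (median 146) and at 6.38 to 72.5 CPM with it (median 28.0), with no overlap and a log2 fold change of -2.83 (SE 0.25, adjusted p = 3.85e-09), and Flrt2 had a log2 fold change of -1.51 (SE 0.24, adjusted p = 3.03e-05). Dock1, a Rac exchange factor in netrin signalling, had a log2 fold change of -1.23 (SE 0.15, adjusted p = 8.93e-07). Beside Pdx1 and MafA 11 of these genes were higher and 4 lower, where 9.42% and 8.4% of all genes were called. Beside MafA 5 were higher and 3 lower (2.5% and 2.17% of all genes), and beside Pdx1 Crmp1 was higher and Flrt3 lower (1.32% and 0.171% of all genes).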

How the data were processed

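RNA of 61 libraries, made from pools of 50 sorted cells by a full-length amplification method with tagmentation, was sequenced as single-end 50-base reads. Per the submitters' notes and the study's methods, reads were aligned to mm10 with GSNAP and assigned to Ensembl release 81 genes with HTSeq (0.5.3p3), and the authors deposited raw read counts per gene and library. The strand setting is not given in the sources used here. Reads assigned to no gene stayed out of library sizes and tests: per library, 6.42 to 27.8% had no feature, 3.44 to 14.2% were ambiguous and 12.2 to 45.3% were not aligned.

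Members were the symbols of the Slit, Robo, semaphorin (classes 3 to 7), plexin, netrin, Unc5, Dcc, neuropilin, ephrin and Eph families, given to Ensembl IDs by name, with positions from GENCODE M21 (GRCm38). The members, the lists of other guidance genes and the cell type markers were chosen with earlier results of these data known. Every member was counted, and those named were up to 30 per comparison past the threshold by adjusted p. Also named were the most abundant of each family and those at 3 counts or fewer in every sample. Members whose call differed with the replicate block were named only for comparisons in which the replicate numbers paired the samples. Members named beyond this rule (Plxna1, Plxna4, Robo3, Ntn4 and those that failed the gene filter) were chosen after their values were seen. Libraries needed over 1000000 gene counts, under 25% spike-in reads and over 10000 detected genes. These criteria left out 3 libraries, fewer than the samples that the study's methods leave out, and 58 libraries were kept, with 1373561 to 9736403 gene counts each, and technical repeats were summed into 32 samples. The test ran on 24004 genes, those with a count in 5 or more libraries whose log2(CPM + 1) varied with a variance above 0.001.

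The main test was edgeR 4.0.16 (R 4.3.3), quasi-likelihood with legacy = TRUE and trended dispersion, on counts with TMM scaling, in 1 model of 12 conditions without a replicate block, two-sided, with a threshold of 0.05 on the Benjamini-Hochberg adjusted p. CPM is the count per 1000000 of the TMM-scaled library size. Folds against a group at 0 used the mean CPM of 3 counts per library as the floor, and pooled count ratios carry exact 95% intervals. Intervals and floors cover counting error only, since reads carried no molecular identifiers. The replicates are separate sorted pools of the cultures, and p-values measure the spread between them. The scripts were tested on simulated counts.

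Replicate numbers were checked as pairs by the correlation of deviations from condition means, and they paired the samples beside Pdx1 (4 pairs, r = 0.519 to 0.756), beside MafA (5 pairs, 0.234 to 0.441), for Pdx1 against MafA without Ngn3 (4 pairs, 0.432 to 0.785) and with it (6 pairs, 0.159 to 0.627), and for Pdx1 added to Ngn3-MafA (5 pairs, 0.137 to 0.445). In a condition of 2 samples the deviations mirror each other, so such pairs are not independent. For Pdx1 against MafA without Ngn3, both WTNgn3 pairs had the same r, 0.598. The alternatives were a replicate block, also within culture, DESeq2 1.42.0, its size factors in edgeR, edgeR's filterByExpr, no gene filter, all libraries, the first technical repeat only, edgeR without the legacy setting, and fits without each replicate number or sample. Fits without 1 sample kept the dispersion trend of the full fit. Start regions came from RefSeq (GRCm38.p6).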

Additional observations from a re-analysis of the deposited data

Results flagged for a closer look

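Sema3g counts were also present in the 3 libraries left out for having under 1000000 gene counts, all from Ngn3-Pdx1-MafA cells, whereas no sample without Ngn3 had a count of this gene. Per 1000000 gene counts, the level was 32 in WTNgn3-Pdx1-MafA replicate 2, repeat 1 (20 counts), 16.6 in 6SANgn3-Pdx1-MafA replicate 2, repeat 2 (4 counts) and 9.79 in 6SANgn3-Pdx1-MafA replicate 3, repeat 1 (4 counts). These libraries entered no comparison.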

How the results depend on the processing

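No call changed direction under any alternative: of 3080 values of the 70 calls of members, 2760 stayed on their side of the threshold with the same direction and 320 lost the call. Over all combinations (28 members called) the other settings called 21 to 35 members, of which DESeq2 shared 26 of 28, its size factors in edgeR 26 of 26, all libraries 27 of 27 and the first technical repeat only 20 of 21. Beside Pdx1 (1 called), 6 members were called by DESeq2, 2 with DESeq2's size factors, 2 with filterByExpr, 6 without the gene filter, 4 without the legacy setting, 8 with the replicate block, 8 with the replicate block within culture and 2 with all libraries. Beside MafA (11 called), 17 were called without the gene filter, 18 with the replicate block and 20 with the block within culture. For MafA added to Ngn3-Pdx1 (2 called) the counts were 5 by DESeq2, 14 without the gene filter, 6 without the legacy setting, 8 with the replicate block and 8 with it within culture. For Pdx1 added to Ngn3-MafA (7 called) they were 15 without the gene filter, 12 without the legacy setting, 13 with the replicate block and 15 with it within culture. Without the gene filter, 3 members were called between 6SANgn3 and WTNgn3 in Ngn3 cells (132 genes higher and 107 lower of 31181), 1 between Pdx1 and MafA beside Ngn3 (500 and 134) and 1 for the Ngn3 effect between cultures (63 and 38), where the main count was 0. The cause of these differences was not tested. Leaving out 1 replicate number or 1 sample gave 13 to 28 members over all combinations, 0 to 5 beside Pdx1, 0 to 12 beside MafA, 4 to 25 beside both, 0 to 1 between Pdx1 and MafA beside Ngn3, 0 to 9 for MafA added, 0 to 15 for Pdx1 added and 0 to 0 in the other comparisons. The fit without replicate 2 gave the lowest count in each, with some conditions left with 1 sample, which was assumed to vary like the others. Without replicate 1, 12 of the 28 calls over all combinations were shared, and without replicate 2, 13 were. Where the numbers did not pair every set of samples, the replicate block called 35 members over all combinations (12 of 14 pairs correlated over 0.1), 31 beside both factors (3 of 5) and 8 for MafA added (3 of 5), and 28 of 32 samples correlated best with their own number. It changed no call in the comparisons where none was made. Over all genes, calls differed by over 1.5 times between edgeR and DESeq2 beside Pdx1 (317 higher and 41 lower against 780 and 131), beside MafA (600 and 521 against 1077 and 851), for MafA added (126 and 325 against 369 and 975), for Pdx1 added (280 and 374 against 830 and 1105), for Pdx1 against MafA beside Ngn3 (21 and 11 against 220 and 68) and for the Ngn3 forms in Ngn3 cells (0 and 0 against 10 and 16). Depth limits the rarest members: 3 counts are 0.154 to 1.16 CPM, and single values of Slit3 and Epha5 rest on few counts.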
